A study of Mus musculus with 6 samples.

Results

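The genes described here are Nfe2l2, which encodes the transcription factor NRF2, Keap1, which encodes the protein that holds NRF2 in check, and 8 antioxidant genes that NRF2 is known to control (Nqo1, Hmox1, Gclc, Gclm, Srxn1, Txnrd1, Gsr and Txn1). They were taken by symbol from the deposited table, where each of the 10 had 1 row among 25416 genes. The study asked which transcripts differ in AML12 cells, a mouse hepatocyte line derived from an animal that carried a human TGF alpha transgene, when Setdb1 is knocked down. Setdb1 encodes a methyltransferase of lysine 9 of histone H3. All cells were grown with serum, insulin, transferrin and selenous acid, 3 samples received scrambled RNA (siNC), 3 received siRNA against Setdb1 (siSetdb1), and RNA was taken 72 h after transfection. All samples came from 1 cell line and no label says that the samples of a group were separate cultures, so the p-values reflect how far these samples scatter, a scatter that may be technical.

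NRF2 is made continuously, and in unstressed cells KEAP1 hands it to an E3 ubiquitin ligase built on cullin 3, so that the protein is degraded almost as fast as it is made. Electrophiles and oxidants modify cysteines of KEAP1, and NRF2 then accumulates, pairs with a small MAF protein and binds antioxidant response elements (AREs) near genes of glutathione synthesis, the thioredoxin system, heme breakdown and quinone reduction. Because this control acts on the protein, the mRNA of Nfe2l2 does not report NRF2 activity, and hepatocytes are among the cells in which the pathway is best known.

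The libraries held 16790582 to 17835060 reads, and levels are FPKM, reads scaled to the length of a gene's exons and to the library total, given as mean ± SD over 3 libraries. A log2 fold change is the mean log2(FPKM + 1) of siSetdb1 minus that of siNC, which understates changes of low genes, with p-values from limma adjusted by the Benjamini-Hochberg method over all 12846 genes with at least 0.5 FPKM in 3 libraries. Setdb1 itself fell by 55.3%, from 8.80 ± 0.55 to 3.93 ± 0.56 FPKM (adjusted p = 0.00183, log2 fold change -0.995, SE 0.10). The library siNC replicate 1 stood apart from the other siNC libraries on the first and second principal components, which held 54.8% and 19.3% of the variance. It was at -26.7 against -11.7 and -10.8 on the first, which also separated the groups, and at 15.0 against -10.7 and -14.0 on the second. Results that this library decides are given without it. Of 12 hepatocyte markers, 9 passed the filter and 3 of these fell (33.3%, beside 8.27% lower among all genes tested). The 3 were Ttr, Trf and Cebpa, while Apob was 1.32 times its siNC mean and did not pass (adjusted p = 0.344, limma). Summed levels of the markers were 134 to 180 FPKM in siNC and 85.3 to 110.0 FPKM in siSetdb1. Alb, the defining product of hepatocytes, was low at 1.45 to 14.3 FPKM, and Serpina1a and Ahsg were at or near 0. The hepatocyte markers Hnf4a and Foxa2 had 27.11 to 38.15 and 24.82 to 34.7 FPKM over all libraries. The bile duct keratin gene Krt19 stood at 1204 to 1444 FPKM. Of 4 tested bile duct markers, Krt19 did not pass (adjusted p = 0.691), the keratin gene Krt7 and the transcription factor gene Sox9 were 1.41 and 1.87 times their siNC means (adjusted p = 0.00827 and 0.0068), and Spp1, which encodes osteopontin, was 0.521 times its siNC mean (adjusted p = 0.00689). Summed markers of endothelial cells reached at most 0.20 FPKM and those of fibroblasts and stellate cells 1.22 FPKM. Leukocyte markers summed to 4.76 to 6.64 FPKM in siNC and 2.39 to 3.17 FPKM in siSetdb1, most of it Cd68, with 1 to 3 reads per library for the pan-leukocyte gene Ptprc. In bulk RNA, fewer cells of a type and less RNA per cell cannot be told apart, and the part of these markers in the results that follow was not tested.

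Within the set, 1 gene rose, 1 fell and 7 did not pass the test after Setdb1 knockdown, and Nqo1 was too low to be tested. The sulfiredoxin gene Srxn1 was 1.34 times its siNC level, Gclc, the catalytic subunit gene of glutathione synthesis, fell by 23.1%, and the other 7 tested genes had mean levels between 0.886 and 1.07 times those of siNC. The 2 genes that passed are 22.2% of the 9 tested, beside 15.1% of all genes tested (6.87% higher and 8.27% lower). The groups of libraries did not overlap for the same 2 genes, as was the case for 39.2% of all genes tested (17.6% higher and 21.6% lower). The median log2 fold change of the 9 genes was -0.08, beside -0.018 for all genes. The number that passed was 2 without siNC replicate 1, 1 without siNC replicate 3, siSetdb1 replicate 2 or siSetdb1 replicate 3, and 0 without siNC replicate 2 or siSetdb1 replicate 1. With the latter libraries left out in turn, 2 of the 9 had an unadjusted p under 0.05 in limma.

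**Figure D1:**
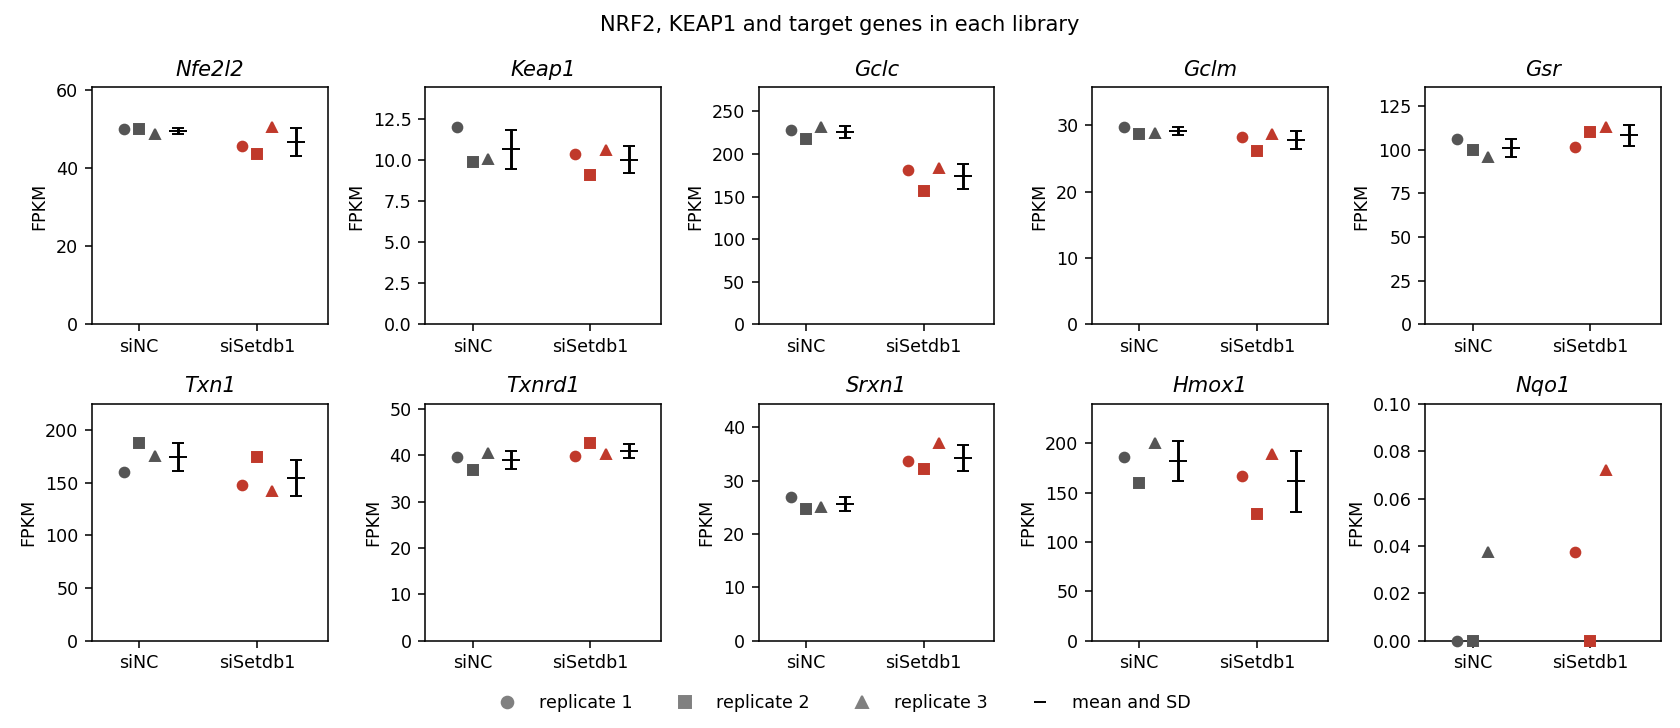
FPKM of the 10 genes in each library (points, with a marker shape per replicate number) for siNC and siSetdb1, with the mean and SD beside each group except for Nqo1; axes start at 0 and differ between panels. The 3 siSetdb1 libraries lie below all siNC libraries for Gclc (156.8 to 183.2 against 217.6 to 231.7 FPKM) and above them for Srxn1 (32.2 to 37.0 against 24.7 to 27.0 FPKM), and the groups overlap for the other 8 genes.

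The mRNAs of the regulator and of its inhibitor did not pass the test. Nfe2l2 (ENSMUSG00000015839) lies on chromosome 2 at 75675513 to 75704641 (minus strand, mm10) and had 50.0, 50.0 and 48.7 FPKM in siNC replicates 1 to 3 against 45.7, 43.7 and 50.6 FPKM in siSetdb1. The highest value was that of siSetdb1 replicate 3 and the lowest that of siSetdb1 replicate 2, so that the groups overlapped. The log2 fold change was -0.088 (95% interval -0.257 to 0.081, adjusted p = 0.44, limma). The siNC libraries were close together, with an SD of 1.49% of the mean, and the siSetdb1 libraries were more spread (7.63%). Keap1 (ENSMUSG00000003308, chromosome 9, 21229730 to 21239361, minus strand) had 12.03, 9.91 and 10.1 FPKM in siNC and 10.4, 9.07 and 10.6 FPKM in siSetdb1. Its log2 fold change was -0.08 (95% interval -0.305 to 0.144, adjusted p = 0.598) and was 0.002 without siNC replicate 1, the highest library. Of the 4693 bases of Keap1 exons, 510 overlap exons of an annotated antisense gene, Gm16754, and since the library protocol names no step that keeps strand, reads in this stretch may belong to either gene. Nfe2l2 mRNA was several times as abundant per length as Keap1 mRNA in every library.

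The genes whose pattern over the 6 libraries was most like that of Nfe2l2 among the 12846 tested were Camk2n1 (Pearson's r = 0.997 on log2(FPKM + 1)), Gm5617 (0.987) and Gm14760 (0.982). With Nfe2l2 they share a low value in siSetdb1 replicates 1 and 2 and a high value in siSetdb1 replicate 3. Camk2n1, an inhibitor gene of calcium/calmodulin-dependent kinase II, had 3.71, 3.28 and 4.91 FPKM in siSetdb1 and 4.51 to 4.93 FPKM in siNC. These coefficients rest on 6 points that share their libraries and are a description only.

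The first step of glutathione synthesis is carried out by glutamate-cysteine ligase, an enzyme of a catalytic subunit (GCLC) and a modifier subunit (GCLM) that raises its efficiency. Gclc (ENSMUSG00000032350, chromosome 9, 77754535 to 77794485, plus strand) had 227.9, 217.6 and 231.7 FPKM in siNC and 180.5, 156.8 and 183.2 FPKM in siSetdb1. All siSetdb1 libraries were below all siNC libraries, with siSetdb1 replicate 2 the lowest. The mean fell from 226 ± 7.28 to 173.5 ± 14.6 FPKM (log2 fold change -0.381, SE 0.08, 95% interval -0.567 to -0.195, adjusted p = 0.0215, limma). These levels rest on 10079 to 14988 reads, the largest number among the 10 genes. Dropping 1 library moved the adjusted p to 0.0514 (siNC replicate 2), 0.052 (siNC replicate 3), 0.0651 (siSetdb1 replicate 1) or 0.0783 (siSetdb1 replicate 2), and no filter on low values moved it to 0.0594, while the log2 fold change stayed at -0.422 to -0.31 over the 15 alternatives.

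The modifier subunit gene did not pass the test. Gclm (ENSMUSG00000028124, chromosome 3, 122245557 to 122270732, plus strand) had 29.8, 28.7 and 28.9 FPKM in siNC and 28.2, 26.2 and 28.8 FPKM in siSetdb1, with overlapping groups. Its log2 fold change was -0.07 (95% interval -0.222 to 0.083, adjusted p = 0.498). That interval does not reach the estimate for Gclc but overlaps the Gclc interval (-0.567 to -0.195). The difference between these genes was not tested with limma. The ratio of Gclc to Gclm mRNA, both per length, was 7.66, 7.57 and 8.03 in siNC and 6.39, 5.99 and 6.37 in siSetdb1. All 3 ratios were lower in siSetdb1, with an exact two-sided permutation p of 0.1, the smallest that 3 against 3 samples can give. Part of the Gclm exons, 296 of 6291 bases, overlaps the opposite-strand gene Gm17494, and 244 bases overlap the pseudogene Gm6061. Gsr (ENSMUSG00000031584, chromosome 8, 33652523 to 33698163, plus strand), which encodes the reductase that returns oxidised glutathione to its reduced form, had 106.4, 100.1 and 95.9 FPKM in siNC and 101.4, 110.0 and 113.1 FPKM in siSetdb1. The groups overlapped and the log2 fold change was 0.101 (95% interval -0.07 to 0.271, adjusted p = 0.381).

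In the thioredoxin system, thioredoxin (TXN1) reduces disulfides in other proteins, thioredoxin reductase (TXNRD1), a selenoprotein, recharges it with NADPH, and sulfiredoxin (SRXN1) repairs peroxiredoxins whose cysteine has been overoxidised. Srxn1 (ENSMUSG00000032802, chromosome 2, 152105516 to 152111376, plus strand) had 27.0, 24.7 and 25.1 FPKM in siNC and 33.6, 32.2 and 37.0 FPKM in siSetdb1. All siSetdb1 libraries were above all siNC libraries, with siSetdb1 replicate 3 the highest. The mean rose from 25.6 ± 1.23 to 34.3 ± 2.44 FPKM (adjusted p = 0.0144 with limma, log2 fold change 0.406, SE 0.076, 95% interval 0.23 to 0.583), with 1213 to 1860 reads per library. Dropping 1 library moved the adjusted p to 0.051 (siNC replicate 2), 0.0601 (siSetdb1 replicate 1) or 0.0522 (siSetdb1 replicate 3), while the log2 fold change stayed at 0.352 to 0.501 over the 15 alternatives. In siNC Srxn1 stood below Gclm in FPKM, and in siSetdb1 above it, with no overlap between the genes in either group.

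Txn1 and Txnrd1 did not pass the test. Txn1 (ENSMUSG00000028367, chromosome 4, 57943373 to 57956411, minus strand) had 160.4, 187.5 and 175.3 FPKM in siNC and 147.4, 174.1 and 142.2 FPKM in siSetdb1, with siSetdb1 replicate 2 inside the range of siNC. Its log2 fold change was -0.176 (95% interval -0.405 to 0.054, adjusted p = 0.262). Txnrd1 (ENSMUSG00000020250, chromosome 10, 82833951 to 82897712, plus strand) had 39.5, 36.7 and 40.5 FPKM in siNC and 39.7, 42.6 and 40.2 FPKM in siSetdb1. The ranges overlapped between 39.7 and 40.5 FPKM, and the log2 fold change was 0.068 (95% interval -0.09 to 0.227, adjusted p = 0.52).

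**Figure D2:**
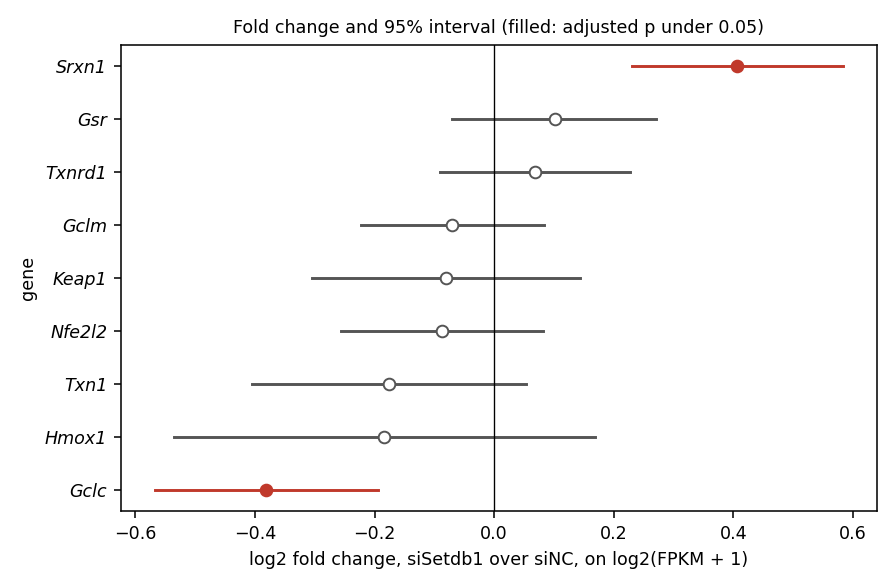
Log2 fold change of siSetdb1 over siNC (x axis, log2(FPKM + 1) scale) with its 95% interval from limma for the 9 genes that were tested (y axis), filled where the adjusted p was under 0.05. Srxn1 (0.406) and Gclc (-0.381) are the 2 genes whose intervals exclude 0, and the other 7 estimates lie between -0.184 and 0.101.

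Promoter sequences are shown to place the ARE-like letters of Srxn1, the gene that rose, beside those of the other genes of the set. RefSeq windows of 300 bases (GRCm38.p6, 250 before to 50 after the start) were at hand for 7 of the 10 genes, in 9 windows, and Gclc, Gsr and Hmox1 were not analysed here. Both strands were searched for the ARE core TGACNNNGC, found in 12.4% of 32851 windows, for the form TGANTCAGC, found in 1.19%, and for the AP-1 letters TGANTCA, which the second form contains, found in 7.81%. The Srxn1 window held 1 match to TGANTCAGC, which begins 45 bases before the start, and a second copy of TGANTCA 102 bases before it. No other member window held TGANTCAGC or TGANTCA. The ARE core was found once each in windows of Nfe2l2, Gclm and Srxn1 (there past the start, not shown), in 1 of 3 windows of Txnrd1, and in none of Keap1, Nqo1 or Txn1, where only these letters in this window were searched. The sequences are given in the direction of the motif with its letters in capitals, at chr2:152105471-152105495 and chr2:152105414-152105436 for Srxn1, chr2:75704887-75704911 for Nfe2l2, chr3:122245415-122245439 for Gclm and chr10:82859106-82859130 for Txnrd1.
Srxn1, TGANTCAGC, plus strand: attcacccTGAGTCAGCggccgggc
Srxn1, TGANTCA, plus strand: ggagggccTGAGTCAccacgctg
Nfe2l2, ARE core, minus strand: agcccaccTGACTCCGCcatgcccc
Gclm, ARE core, minus strand: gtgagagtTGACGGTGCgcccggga
Txnrd1, ARE core, minus strand: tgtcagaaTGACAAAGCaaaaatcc
A match of letters is a description and not evidence of binding in these cells, and the genes that hold one include Gclm, Nfe2l2 and Txnrd1, which did not pass the test.

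Heme oxygenase 1, encoded by Hmox1, opens the heme ring to give biliverdin, iron and carbon monoxide. Hmox1 (ENSMUSG00000005413, chromosome 8, 75093621 to 75100589, plus strand) had 186.2, 159.9 and 200.1 FPKM in siNC and 166.9, 128.3 and 189.2 FPKM in siSetdb1. The groups overlapped, with siSetdb1 replicate 2 the lowest library. Its log2 fold change of -0.184 had the widest interval of the 9 genes (-0.536 to 0.168, adjusted p = 0.434), and the SD was 11.2% of the mean in siNC and 19.1% in siSetdb1. A change of about the size measured for Gclc would lie within that interval.

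Nqo1, the gene of NAD(P)H quinone oxidoreductase 1 and a standard readout of NRF2 activity, was nearly silent in these cells. Nqo1 (ENSMUSG00000003849, chromosome 8, 107388225 to 107403206, minus strand) was hit by 0, 0 and 1 reads in siNC libraries and by 1, 0 and 2 in siSetdb1 libraries, which is 4 of 103553616 reads in all. Each library was at or under the floor of 3 counts, which corresponds to 0.108 to 0.115 FPKM, so no fold change is given and a difference was not detectable at this depth. The floor covers counting error only. Nqo2, a related quinone reductase gene, had 11.7 ± 0.825 FPKM in siNC and 13.2 ± 1.76 FPKM in siSetdb1 (adjusted p = 0.373, limma).

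Per length, the 10 genes spanned a wide range of levels, and their order was nearly the same in both groups. In siNC the order was Gclc (226 FPKM), Hmox1 (182), Txn1 (174), Gsr (100.8), Nfe2l2 (49.5), Txnrd1 (38.9), Gclm (29.1), Srxn1 (25.6), Keap1 (10.7) and Nqo1, and only Hmox1 and Txn1 overlapped as neighbours. In siSetdb1 the ranges of Gclc and Hmox1, and of Hmox1 and Txn1, overlapped, and Srxn1 and Gclm changed places. Gclc, Hmox1, Txn1 and Gsr stood above 96.3% or more of all genes tested in siNC, and Keap1 above 63.0%. Among the siSetdb1 libraries, replicate 2 held the lowest value for 6 of the 9 tested genes (Nfe2l2, Keap1, Hmox1, Gclc, Gclm and Srxn1) and replicate 3 the highest for 7. Among the siNC libraries, replicate 2 held the lowest for 6 and replicate 1 the highest for 5.

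The partners of NRF2 were measured from a list of 14 genes of its regulation, of which 12 were tested, 4 rose and 1 fell. The genes that passed were 41.7% of those tested, beside 15.1% of all genes tested. This list and those below were chosen with earlier results of these data known, so their shares may reflect that choice. All 3 small MAF genes, whose products pair with NRF2 on DNA and also with the repressors BACH1 and BACH2, rose. Mafk rose from 8.60, 6.78 and 7.45 FPKM in siNC to 10.7, 11.8 and 11.8 FPKM in siSetdb1 (adjusted p = 0.0117 with limma, log2 fold change 0.532, SE 0.094). Maff had 50.4, 46.3 and 45.4 FPKM in siNC and 60.0, 60.6 and 67.1 FPKM in siSetdb1 (0.394, adjusted p = 0.0154). Mafg had 18.2, 17.8 and 19.2 FPKM in siNC and 22.4, 22.5 and 21.2 FPKM in siSetdb1 (0.247, adjusted p = 0.043). For each of the 3, all siSetdb1 libraries were above all siNC libraries, as was the case for 17.6% of all genes tested. The sign of each of the 3 held under all 15 alternatives. The promoters of these genes were searched in the same way, and the ARE core was found once for each gene. It lay in 1 of 3 windows of Maff and in the single windows of Mafg and Mafk, beside 12.4% of all windows. Gclm, Nfe2l2 and Txnrd1, which did not pass, also held it, and a match is not evidence of binding. The matches are at chr15:79346501-79346525 for Maff, chr11:120633753-120633777 for Mafg and chr5:139791515-139791539 for Mafk.
Maff, ARE core, plus strand: gcgtctcaTGACTCTGCcactggaa
Mafg, ARE core, plus strand: cgccgggtTGACCGTGCtcctgcag
Mafk, ARE core, minus strand: cccagtacTGACACCGCttccggga

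**Figure D3:**
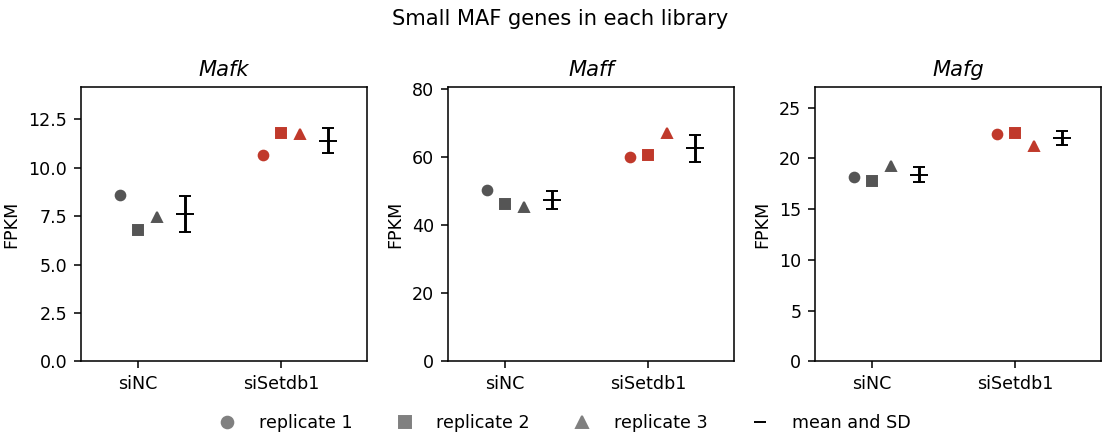
FPKM of Mafk, Maff and Mafg in each library (points, with a marker shape per replicate number) for siNC and siSetdb1, with the mean and SD beside each group; axes start at 0 and differ between panels. In each panel the 3 siSetdb1 libraries lie above the 3 siNC libraries.

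The calls of the small MAF genes differed in how they held when a library was left out. Mafk lost its call without siSetdb1 replicate 2 (adjusted p = 0.0547) and kept it without any other library. Maff moved to 0.053 when siNC replicate 2 was dropped, and to 0.0519, 0.0539 or 0.0551 when siSetdb1 replicate 1, 2 or 3 was. With a library left out, Mafg passed only without siNC replicate 1, and its adjusted p reached 0.158 without siSetdb1 replicate 1. Bach1, the gene of a repressor that competes with NRF2 for the same partners, had 5.46 ± 0.721 and 6.81 ± 0.169 FPKM (adjusted p = 0.0835).

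**Figure D4:**
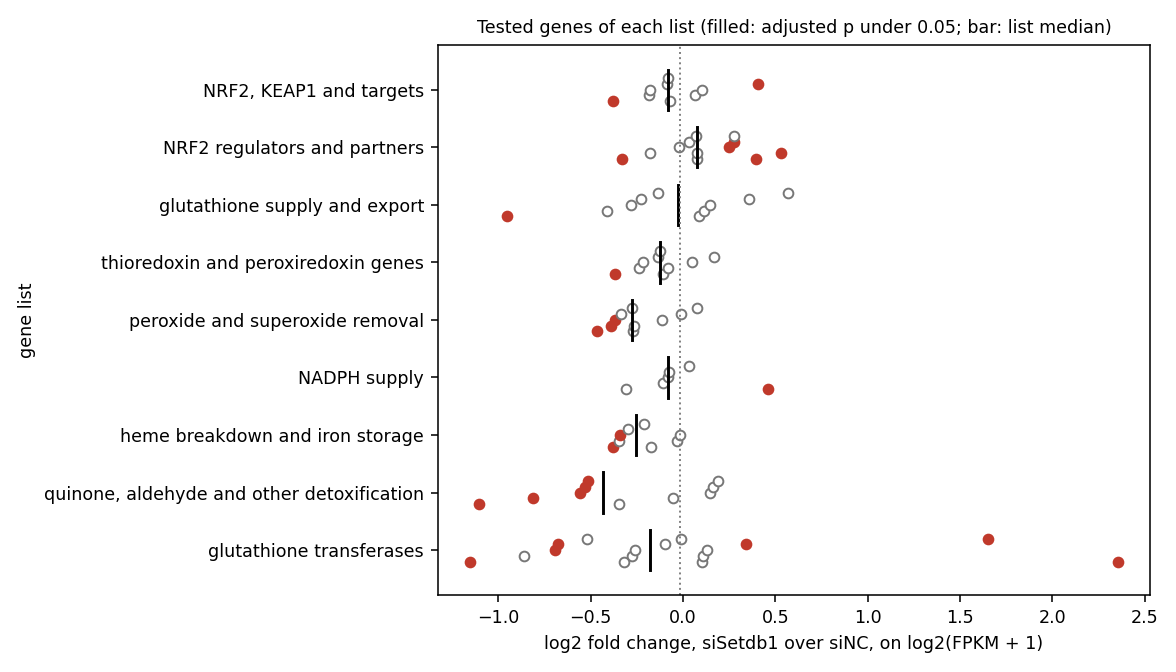
Log2 fold change of siSetdb1 over siNC (x axis) of each tested gene in the set and in the 8 further lists (y axis), filled where the adjusted p was under 0.05; the bar is the list's median and the dotted line the median of all genes tested (-0.018). The detoxification list has its median at -0.43 with 5 filled points to the left, and the glutathione transferases spread from -1.15 to 2.35.

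Gsk3b, the gene of a kinase that marks NRF2 for KEAP1-independent degradation, and Dpp3, whose product binds KEAP1, were the other called genes of this list. Gsk3b, chosen once its values were known, was higher at 12.3 ± 0.253 against 10.0 ± 0.753 FPKM (adjusted p = 0.0447), and Dpp3 fell from 25.0 ± 2.79 to 19.6 ± 0.228 FPKM (adjusted p = 0.0419). Both lost their calls without siNC replicate 2 or any 1 siSetdb1 library, and Gsk3b also without siNC replicate 3 (adjusted p = 0.069). Dpp3 was at 0.0602 with median-ratio scaling. Sqstm1, whose product p62 sequesters KEAP1, had 155 ± 20.4 and 162 ± 10.5 FPKM (adjusted p = 0.657), and Cul3, the cullin of the KEAP1 ligase, 41.5 ± 7.28 and 42.1 ± 0.791 FPKM (adjusted p = 0.872). The list's median log2 fold change was 0.076, and the number that passed was 5 without siNC replicate 1, 3 without siNC replicate 3, 1 when siNC replicate 2, siSetdb1 replicate 1 or siSetdb1 replicate 3 was dropped, and 0 when siSetdb1 replicate 2 was dropped.

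Of 10 further tested genes grouped here under glutathione supply and export, 1 passed (10.0%, beside 15.1% of all genes tested). This was the glutaredoxin gene Glrx, which went from 11.7 ± 2.31 to 5.57 ± 1.24 FPKM and so fell by 0.95 on the log2 scale (adjusted p = 0.0138, limma). That p was 0.0601 or 0.055 once siSetdb1 replicate 1 or 2 was dropped. The cystine transporter gene Slc7a11, a further NRF2 target, was low, with 0.838, 1.21 and 1.24 FPKM in siNC and 1.72, 1.41 and 1.92 FPKM in siSetdb1, and did not pass (log2 fold change 0.357, adjusted p = 0.0815). The number of passing genes in this list was 4 with limma-voom on recovered reads and 3 with the variance trend set on reads. Of 9 further thioredoxin and peroxiredoxin genes, 1 passed (11.1%, also near that share), Prdx2, which fell from 101.8 ± 10.1 to 78.5 ± 2.24 FPKM (-0.367, adjusted p = 0.0274). Its p became 0.0649 when siNC replicate 2 was dropped, and 0.104, 0.101 or 0.0639 when siSetdb1 replicate 1, 2 or 3 was. Of this list 2 genes fell without siNC replicate 1. Prdx1, a known NRF2 target, had 277 ± 14.6 and 235 ± 8.82 FPKM (adjusted p = 0.0613).

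Genes grouped here under peroxide and superoxide removal had a median log2 fold change of -0.273. Of 10 tested, 3 fell (30.0%, beside 8.27% lower among all genes tested). Cat, the gene of catalase, fell from 116 ± 10.3 to 89.8 ± 8.91 FPKM (-0.368, adjusted p = 0.0457), the methionine sulfoxide reductase gene Msrb1 from 35.6 ± 3.27 to 27.0 ± 1.39 FPKM (-0.388, adjusted p = 0.023), and the extracellular superoxide dismutase gene Sod3 from 1.24 ± 0.185 to 0.62 ± 0.0666 FPKM (-0.463, adjusted p = 0.023). This number was 0 without siSetdb1 replicate 1 or 2, 1 without siSetdb1 replicate 3 and 2 without siNC replicate 3. Cat also lost its call without siNC replicate 1 (adjusted p = 0.0742) and, with siNC replicate 3 left out, had an adjusted p of 0.0975. It was 0.0648 with median-ratio scaling and 0.0503 with GC content and length trends removed. With limma-voom on recovered reads 6 fell. Of 6 genes grouped here under NADPH supply, not all of whose products make NADPH themselves, 1 passed (16.7%, beside 15.1% of all genes). This was the transaldolase gene Taldo1, which rose from 55.5 ± 7.27 to 76.2 ± 3.15 FPKM (0.459, adjusted p = 0.0252). Its p became 0.0533 when siNC replicate 2 was dropped, and 0.0774, 0.0826 or 0.0792 when siSetdb1 replicate 1, 2 or 3 was.

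Beside Hmox1, 8 genes of heme breakdown and iron storage were tested, with a list median of -0.254. Of these, 2 fell (25.0%, beside 8.27% lower among all genes tested). Slc48a1, which encodes a heme transporter, fell from 54.5 ± 5.59 to 42.7 ± 2.84 FPKM (adjusted p = 0.0444), and Blvrb, a biliverdin reductase gene, from 8.76 ± 0.871 to 6.52 ± 0.753 FPKM (adjusted p = 0.0464). Without siNC replicate 1 the adjusted p was 0.0525 for Slc48a1 and 0.0749 for Blvrb, and neither passed with median-ratio scaling (0.0637 and 0.069). With GC content and length trends removed it was 0.0656 for Blvrb. Without siSetdb1 replicates 1, 2 and 3 it was 0.153, 0.144 and 0.0643 for Slc48a1 and 0.135, 0.149 and 0.0537 for Blvrb, without siNC replicate 2 it was 0.12 for Blvrb, and without siNC replicate 3 it was 0.0825 for Slc48a1. Fth1, the ferritin heavy chain gene and the most abundant of these genes per length, had 1055 ± 121 and 832 ± 125 FPKM and did not pass (adjusted p = 0.104).

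Of 10 tested detoxification genes outside the core set, 5 fell (50.0%, beside 8.27% lower among all genes tested), and the list's median was -0.43. Akr1b8, an aldo-keto reductase gene, had 70.2, 64.8 and 65.5 FPKM in siNC and 47.2, 46.7 and 45.3 FPKM in siSetdb1 (log2 fold change -0.516, SE 0.064, adjusted p = 0.00353, limma), and passed under all 15 alternatives. The aldose reductase gene Akr1b3 fell from 9.46 ± 0.876 to 6.12 ± 0.771 FPKM (-0.557, adjusted p = 0.0137). Aldh1a1, which encodes a retinal dehydrogenase, fell from 70.6 ± 15.4 to 32.4 ± 7.68 FPKM (-1.105, adjusted p = 0.0145), and the carbonyl reductase gene Cbr1 from 2.57 ± 0.435 to 1.46 ± 0.114 FPKM (-0.532, adjusted p = 0.0199). Ephx1, the microsomal epoxide hydrolase gene, chosen once its values were known, fell from 57.3 ± 11.7 to 32.5 ± 8.78 FPKM (adjusted p = 0.0487).

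Of this list 4 genes passed when siNC replicate 1 was dropped, 1 when siSetdb1 replicate 1 was and 2 when siSetdb1 replicate 2 was. Without siSetdb1 replicate 1 the adjusted p was 0.061 for Akr1b3, 0.0596 for Aldh1a1 and 0.0765 for Cbr1, and without siSetdb1 replicate 2 it was 0.0506 for Aldh1a1 and 0.0784 for Cbr1. Ephx1 moved to 0.132 or 0.114 when siNC replicate 1 or 3 was dropped, and to 0.126 or 0.122 when siSetdb1 replicate 1 or 2 was. It also lost its call with limma-voom on recovered reads (0.0584), GC content and length trends removed (0.0558), median-ratio scaling (0.0563), a pseudocount of 0.1 (0.0512) and no filter (0.125), and so passed under 6 of 15 alternatives. The aldo-keto reductase genes have close paralogs, between which short reads may be split in a way the sources used here do not describe. The summed hepatocyte markers given above were also lower in siSetdb1, without overlap, as were 21.6% of all genes tested. Of the 9 tested markers 6 did not pass, and Apob had a higher mean in siSetdb1. Of the bile duct markers, Krt7 and Sox9 were higher, Spp1 was lower and Krt19 did not pass. The part of these markers in the lower detoxification genes was not tested.

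Among glutathione transferases, enzymes that join glutathione to electrophiles and another class of known NRF2 targets, 3 of 16 tested genes rose and 3 fell. The genes that passed were 37.5% of those tested, beside 15.1% of all genes tested. Gsta1 and Gsta2, near-identical paralogs between which reads may be split, were 5.54 and 4.12 times their siNC means, at 8.60 to 10.5 and 1.88 to 2.58 FPKM in siNC against 49.7 to 53.5 and 8.31 to 9.96 FPKM in siSetdb1. Gstm1 had 111.7, 81.5 and 102.1 FPKM in siNC and 42.4, 35.7 and 53.7 FPKM in siSetdb1 (log2 fold change -1.153, adjusted p = 0.00659, limma), and Mgst1 fell from 35.5 ± 1.73 to 21.8 ± 3.38 FPKM (-0.691, adjusted p = 0.00891). These 4 genes passed under all 15 alternatives, in both directions. In this list 6 genes passed with all libraries, 4 to 7 with 1 library left out and 7 without siNC replicate 1. Gclc moved in the direction of Gstm1 and Mgst1 and opposite to Gsta1 and Gsta2. NRF2 activity was not measured, and its part in these changes was not tested.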

How the data were processed

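Polyadenylated RNA of 6 AML12 samples was sequenced as single-end reads of 50 bases, per the labels' protocols. Per the submitters' processing notes, mm10 was the build, and DESeq2 1.4.5, RSEM 1.2.12, Bowtie2 2.2.5 and HISAT2 2.0.4 are named without a role. The deposited table gives FPKM made by the authors, 1 value per gene and sample. The headers name no unit, which was read from the values: multiplied by GENCODE M21 exon lengths, they gave whole reads within 0.01 for 98.6% of genes. FPKM depends on each library's total, so a gain in abundant genes lowers the rest. Groups and columns came from titles and descriptions.

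From these values, log2(FPKM + 1) was fitted with limma 3.58.1 in R 4.3.3, group as the only term, with a trended and robust prior variance, a filter of 0.5 FPKM in 3 libraries, and two-sided Benjamini-Hochberg adjusted p-values at a threshold of 0.05. The fit was tested on simulated data with larger changes than most given here and with no library set apart. Small changes were not simulated. The text names all 10 genes, Setdb1, up to 4 called genes per list by lowest p, and the 3 genes most correlated with Nfe2l2. Further genes named (Gsk3b, Bach1, Sqstm1, Cul3, Slc7a11, Prdx1, Fth1, Ephx1, Nqo2 and Aldh3a1) were chosen after their values were seen. Since FPKM are not counts, no count test was the main one, and limma-voom on recovered reads was an alternative, beside other pseudocounts, filters, scaling, trends in GC content and length, a replicate block and leaving out each library. No 2 libraries of a group were copies (chi-square over degrees of freedom 4.7 to 24.0). The genes and lists were chosen with earlier results of these data known.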

Additional observations from a re-analysis of the deposited data

How the results depend on the processing

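With 1 library left out, the 12846 genes tested gave 642 to 2139 passing genes in place of 1945, and the 10 genes of the set gave 0 to 2 in place of 2. Over the same settings the counts were 0 to 5 for NRF2 regulators and partners (5 with all libraries), 0 to 2 for glutathione supply and export (1), 0 to 2 for thioredoxin and peroxiredoxin genes (1), 0 to 3 for peroxide and superoxide removal (3), 0 to 2 for NADPH supply (1), 0 to 1 for heme breakdown and iron storage (2), 1 to 5 for detoxification (5) and 4 to 7 for glutathione transferases (6). With no filter on low values 890 genes passed, and the counts were 1 in the set, 2 regulators, 0 thioredoxin, 0 peroxide, 0 NADPH, 0 heme and 2 detoxification genes. With limma-voom on recovered reads they were 4 for glutathione supply, 6 for peroxide and 2 for NADPH, with the variance trend on reads 3, 5 and 2, and with GC content and length trends removed 2 for glutathione supply, 2 for thioredoxin and 1 for heme genes. A filter of 1 FPKM gave 2 NADPH genes and median-ratio scaling 0 heme genes. The cause of these shifts was not tested.

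The deviations of samples with the same replicate number had correlations of -0.157, 0.167 and -0.172. With 3 libraries per group, such correlations cannot show whether same-numbered samples were paired, and no label says so. With the replicate block 1015 genes passed, with 1 regulator, 2 glutathione supply, 0 thioredoxin, 1 peroxide, 0 NADPH and 0 heme genes, and Gclc and Srxn1 passed (adjusted p = 0.0424 and 0.0432). Gclc kept its direction under all 15 alternatives and its call under 10, and its log2 fold change was -0.381 with no filter, where the call was lost, and -0.422 to -0.31 with 1 library left out. Srxn1 kept its direction under all 15 and its call under 12, at 0.352 to 0.448 with 1 library left out. Keap1 was at -0.126 to 0.002 with 1 library left out and turned from -0.08 to 0.002 without siNC replicate 1. The other tested genes of the set passed under none of the 15 and kept their sign. Of the pathway genes named, calls held under 6 of the 15 for Blvrb and Ephx1, 7 for Cat and Slc48a1, 8 for Mafg, Dpp3 and Gsk3b, 9 for Prdx2 and Taldo1, 10 for Maff and Sod3, 11 for Msrb1 and 12 or more for the others, with no change of sign. Nqo1 was limited by depth, with a floor of 3 reads per library.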

Other observations

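The genes beside Nqo1 were transcribed in the same libraries in which Nqo1 had 4 reads. Why Nqo1 was nearly silent was not tested. The nearest protein-coding neighbours on chromosome 8, chosen after the level of Nqo1 was seen, are Nfat5, the gene of an osmotic stress transcription factor, which ends 8708 bases away, and Nob1, a gene of ribosomal RNA processing, whose nearer end, the 3′ end of this minus-strand gene, lies 9280 bases away on the other side. Nfat5 had 7.95 ± 2.17 FPKM in siNC and 8.46 ± 0.777 FPKM in siSetdb1, and Nob1 had 10.8 ± 0.796 and 10.9 ± 0.538 FPKM. One gene further out on each side, Cyb5b had 81.9 to 88.7 FPKM and Wwp2 3.94 to 4.88 FPKM over the 6 libraries. Aldh3a1, a dehydrogenase gene that is also a known NRF2 target, was at 0.238 to 0.613 FPKM and below the filter.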
